A study of Mus musculus with 4 samples.

Results

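The Hox cluster genes were followed in LSK cells, a bone marrow fraction that lacks lineage markers, carries Sca-1 and c-Kit and contains hematopoietic stem cells and early progenitors. Members were all non-control probes whose gene name in the array files was Hox, a cluster letter from a to d and a number with nothing after it, which took 50 of 41174 probes. These probes named 38 genes of the 28095 gene names on the array, 11 in the *Hoxa* cluster, 10 in *Hoxb*, 8 in *Hoxc* and 9 in *Hoxd*. A RefSeq gene table lists 39 Hox cluster genes by the same rule, and the remaining one, *Hoxc11*, was not analysed here.

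The arrays compared Meis1-deficient with control LSK cells, 2 pools of 6 mice per genotype and 1 array per pool. The Meis1-KO pools came from Mx1-Cre+ *Meis1 fl/fl* mice, in which the exon encoding the *Meis1* homeodomain is flanked by loxP sites and is removed after 4 injections of poly(I:C), 1.5 µg per g of body weight, begun at 4 to 8 weeks of age. The Meis1-WT pools came from *Meis1 fl/fl* mice without Mx1-Cre, so both genotypes carried the floxed alleles, on a C57BL/6J background. For these controls, the microarray methods and the design text give sham treatment, whereas the labels and the mouse methods give poly(I:C). Cells were collected 1 week after treatment. Mx1-Cre is switched on by interferon and acts in many cell types, so recombination was not limited to LSK cells, and each array averages over a pool and over all cells of the gate. Fewer cells of a kind and less RNA per cell cannot be told apart.

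Hox genes encode homeodomain transcription factors and lie side by side in clusters, where the number of a gene (its paralogue group) follows its position, so that low numbers sit at the 3′ end. Hox proteins bind DNA together with TALE homeodomain partners, among them Pbx and Meis proteins, and the partnership of *Hoxa9* with *Meis1* is best known from leukemia. In blood-forming cells, genes of the a and b clusters are known as those most used by stem cells and progenitors. Chromatin complexes of the MLL group keep Hox genes active, and Polycomb complexes keep them silent.

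Each value below is the log2 of the processed signal after subtracting the array's 75th percentile, so 0 marks a signal at that percentile. Values are given for Meis1-KO and then Meis1-WT, slide 1 before slide 2 in each genotype, because both slides held 1 array of each genotype. A probe counted as measured on an array when the scanner software marked it well above background there, and values are not compared between probes, whose brightness differs by sequence. All 10 LSK and stem cell markers, *Kit*, *Ly6a* and *Procr* among them, were above background on all 4 arrays. Between 49.2% and 57.4% of spots were above background per array, lowest in Meis1-KO on slide 2, whose values correlated with the other arrays at 0.891 to 0.916 while the other 3 arrays correlated at 0.956 to 0.967.

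Sequences are shown here for the probes on which single statements turn, as 60-base probes with positions on mm9 from the array files. The first carries the name *Hoxb2* and stands for a cDNA, AK036636, whose probe at chr11:96211860-96211919 lies on the minus strand, while all other *Hoxb* probes lie on the plus strand. It is shown because it gave the smallest p-value of any Hox probe by limma at the measured values, with and without the slide as a block. The other 2 are the probes of *Hoxd9* at chr2:74537333-74537392, plus strand, the only *Hoxd* probe measured on all 4 arrays, and of *Hoxa13* at chr6:52209015-52209074, minus strand, which was measured on none although the other *Hoxa13* probe was measured on all.
*Hoxb2* probe A_51_P257789: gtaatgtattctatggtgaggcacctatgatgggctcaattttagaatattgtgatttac
*Hoxd9* probe A_51_P430728: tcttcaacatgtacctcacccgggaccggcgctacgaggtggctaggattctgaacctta
*Hoxa13* probe A_52_P71789: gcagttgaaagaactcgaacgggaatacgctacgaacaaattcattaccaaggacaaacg
The *Hoxb2* probe is 35.0% G and C, the *Hoxd9* probe 55.0% and the *Hoxa13* probe 43.3%. Because Hox genes share their homeobox, the probes were compared with each other: of 1213 pairs of probes of different Hox genes, 1212 shared fewer than 15 bases in a row. The exception was the *Hoxa9* probe A_51_P117924, which shared 22 bases with a *Hoxb3* probe, A_51_P460643, that was above background on no array.

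The measured Hox genes lay mainly in the a and b clusters. A probe was above background on all 4 arrays for 13 of 38 genes, which were 7 of 11 in *Hoxa* (*Hoxa3*, *Hoxa4*, *Hoxa5*, *Hoxa7*, *Hoxa9*, *Hoxa10* and *Hoxa13*), 5 of 10 in *Hoxb* (*Hoxb2*, *Hoxb3*, *Hoxb5*, *Hoxb6* and *Hoxb9*), 0 of 8 in *Hoxc* and 1 of 9 in *Hoxd* (*Hoxd9*). By probes, 15 of 50 were above background on all 4 arrays, against 45.8% of all probes, and 22 were above on none, against 37.1% of all probes. The measured genes were spread along the clusters, with 4 of 12 genes of paralogue groups 1 to 4, 4 of 11 of groups 5 to 8 and 5 of 15 of groups 9 to 13. No Hox spot was saturated.

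**Figure D1:**
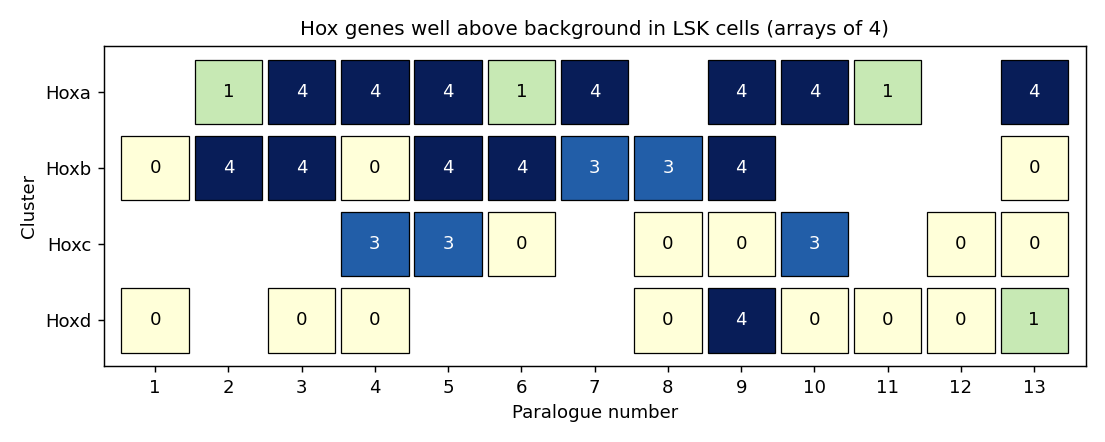
Detection of Hox genes by cluster (rows) and paralogue number (columns), where the number and the shade of a box give on how many of the 4 arrays at least 1 probe of the gene was well above background, taking its most often detected probe. Boxes with 4 fill much of the *Hoxa* and *Hoxb* rows, the *Hoxc* row has none, and the *Hoxd* row has only *Hoxd9*. Empty places have no gene named on the array or are not shown.

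Another 9 genes were above background on 1 to 3 arrays. *Hoxa2*, *Hoxa6*, *Hoxa11* and *Hoxd13* were above on 1 array only, in each case Meis1-WT on slide 1, the array with the highest number of measured Hox genes (21, against 17, 17 and 16 on Meis1-KO slide 1, Meis1-KO slide 2 and Meis1-WT slide 2). That array also had the highest share of spots above background of all kinds. *Hoxb7* and *Hoxb8* were above on every array except Meis1-WT on slide 2, *Hoxc4* on every array except Meis1-WT on slide 1, *Hoxc5* on every array except Meis1-KO on slide 1, and *Hoxc10* on every array except Meis1-KO on slide 2. No Hox gene was above background on both arrays of 1 genotype and on neither array of the other.

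The remaining 16 genes were above background on no array, among them *Hoxb1*, *Hoxb4*, *Hoxb13*, *Hoxc6*, *Hoxc8*, *Hoxc9*, *Hoxc12*, *Hoxc13*, *Hoxd1*, *Hoxd3*, *Hoxd4*, *Hoxd8*, *Hoxd10*, *Hoxd11* and *Hoxd12*. *Hoxb4*, widely used to expand stem cells, is represented by 1 probe, so this says only that 1 probe was not well above background. The 22 probes above background on no array ranged from -6.66 to -4.0. *Hoxb1* has 10 spots on the array, none of the other Hox probes has more than 1. Where a gene had more than 1 probe, the probes did not always have the same detection. For *Hoxa13*, *Hoxb3* and *Hoxd9*, 1 probe was above background on all 4 arrays and the other on none.

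Few other probes lie between the Hox probes of a cluster. Among 9 such neighbours, only a transcript on the opposite strand beside *Hoxa3*, ENSMUST00000114435, was above background on all 4 arrays. It read -0.51 and -1.61 in Meis1-KO and -0.16 and -1.33 in Meis1-WT, a difference of -0.35 on slide 1 and -0.28 on slide 2. Its levels differed more between slides than between genotypes. Of the other 8, 2700086A05Rik was above background on both slide 1 arrays, NAP023193-001 on Meis1-KO slide 1, and 6 on none.

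Markers of cells that could carry Hox RNA into the gate were read on the same arrays. Of 10 stroma and endothelium markers, 2 (*Col1a2* and *Pdgfrb*) were above background on all 4 arrays and 5 (*Cdh5*, *Col1a1*, *Lepr*, *Pdgfra* and *Prrx1*) on none, with a summed signal, in units of the array's 75th percentile, of 3.28 and 5.25 in Meis1-KO and 4.11 and 4.98 in Meis1-WT. Summed erythroid signal was 98.9 and 245 in Meis1-KO and 87.3 and 23.1 in Meis1-WT (4 of 6 markers on all 4 arrays, none at background throughout). Summed granulocyte and monocyte signal was 164 and 115 against 178 and 58.8 (6 of 9 markers on all 4 arrays, none at background throughout). For megakaryocyte markers the sum was 9.98 and 12.7 against 10.7 and 36.2 (5 of 5), for B lineage markers 11.7 and 8.28 against 18.1 and 7.42 (2 of 6, 1 at background throughout), for T lineage markers 0.28 and 0.42 against 0.47 and 0.71 (0 of 5, 2 at background throughout), and for the LSK markers 153 and 157 against 165 and 134. Each gene counts here by its brightest probe, and single genes carried some sums. Hbb-b1 gave 90.5% to 99.5% of the erythroid signal, and the other 5 markers summed to 5.32 and 1.25 in Meis1-KO and 8.27 and 1.16 in Meis1-WT. Vpreb1 gave 80.0% to 87.0% of the B lineage sum, Mpo 52.9% to 79.6% of the granulocyte and monocyte sum and Pf4 36.1% to 79.8% of the megakaryocyte sum. Of 36 tested markers, 2 met the study's criteria, both lower in Meis1-KO, against 0.600% of all tested probes lower. *Cxcl12*, a stromal chemokine, was dim on both Meis1-KO arrays and read -1.10 and -1.64 in Meis1-WT. With dim values raised to the lowest signal above background on the array, it was 8.57-fold higher there on slide 1 and 3.05-fold on slide 2. *Elane*, a granule protease, read -2.56 and -2.30 in Meis1-KO and -0.87 and -0.84 in Meis1-WT. Of the 7 tested granulocyte and monocyte markers, 2 (*Elane* and *Prtn3*) were lower in Meis1-KO on both slides and 1 (*Mpo*, by 0.32 and 0.81) was higher. *Ctsg* differed by -0.0020 on slide 1 and 1.84 on slide 2. The part of these markers in the Hox values was not tested.

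The comparison of genotypes asks whether Hox transcripts changed in LSK cells when *Meis1*, their cofactor, was deleted. By limma, no Hox probe met the study's criteria (p under 0.01 before adjustment, over 2-fold), against 0.736% of all tested probes: 0 of 21 tested probes were lower in Meis1-KO, against a background of 0.600%, and 0 were higher, against 0.136%. A probe entered the test if neither array of a genotype had it dim, and 21 of 50 Hox probes (18 genes) passed, against 53.4% of all probes, with 15 of them above background on all 4 arrays and 6 on 3. Each of those 6 was tested because of the genotype in which it was not dim, which for all but *Hoxc5* was also the one with the higher mean. At an unadjusted p under 0.05 there were 3 Hox probes (*Hoxb2* A_51_P257789, *Hoxb6* A_51_P232207 and *Hoxc10* A_51_P375754), against 2.81% of all tested probes, and the methods' t-test on the same values gave 0 at the criteria, against 0.136%. Adjusted by Benjamini-Hochberg over all tested probes, limma's p for the 21 probes lay between 0.983 and 0.992.

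Because a slide holds 1 array of each genotype, the fit was also made with the slide as a block, and then 3 Hox probes met the criteria, against 1.99% of all tested probes. They were 2 higher in Meis1-KO, *Hoxb2* A_51_P257789 (unadjusted p of 0.000975, adjusted p = 0.173 by limma with the block) and *Hoxb7* (unadjusted p of 0.00581, adjusted p = 0.412), against 0.591% of all tested probes, and 1 lower, *Hoxc10* (unadjusted p of 0.00584, adjusted p = 0.412), against 1.40%. Each of the 3 was dim on 1 array, Meis1-WT on slide 2 for *Hoxb2* and *Hoxb7* and Meis1-KO on slide 2 for *Hoxc10*. With values of dim probes raised to the lowest signal above background on that array, an alternative chosen after seeing the data, the calls with the block changed. Then 5 Hox probes were higher (*Hoxb2* A_51_P257789, *Hoxb6* A_51_P232207, *Hoxb7*, *Hoxb8* and *Hoxb9*), against 0.772% of all tested probes, and 1 was lower (*Hoxa3* A_51_P335169), against 1.55%, while *Hoxc10* no longer met the criteria. For *Hoxb6* A_51_P232207, *Hoxb8*, *Hoxb9* and *Hoxa3* A_51_P335169 the raising changed no difference. Their p-values fell because limma shares an estimate of spread over all probes, which the raised values of other probes changed. The SE with the block for *Hoxb6* A_51_P232207 went from 0.63 to 0.53. The smallest of these p-values was that of *Hoxb7* (adjusted p = 0.0498 by limma with the block), and 102 of 22007 tested probes had an adjusted p under 0.05 in that fit. Raising the dim Meis1-WT slide 2 value lowered the *Hoxb7* difference from 3.42 to 2.30 and its SE with the block from 0.97 to 0.55. That p-value therefore rests on a substituted value, at a probe tested only because both Meis1-KO arrays were above background.

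By direction alone, 12 of the 21 tested probes were higher in Meis1-KO on both slides, against 30.3% of all tested probes, 3 were lower on both, against 21.0%, and 6 differed in direction between slides. Both Meis1-KO arrays lay above both Meis1-WT arrays for 4 probes, against 16.0%, and below both for 3, against 10.9%. A difference over 2-fold in the same direction on both slides occurred for 2 probes higher in Meis1-KO (*Hoxb2* A_51_P257789 and *Hoxb8*), against 0.813%, and for 1 lower (*Hoxc10*), against 1.56%, all at their measured values. Each of these 3 was dim on 1 array of the genotype with the lower mean and was tested only because the other genotype was not dim. None of the 15 Hox probes above background on all 4 arrays showed such a difference. With dim values raised to the lowest signal above background, *Hoxc10* was 1.39-fold lower on slide 2, so over 2-fold is not established there. The median difference over the tested Hox probes was 0.45, with 0.21 on slide 1 and 0.50 on slide 2, while over all tested probes it was 0.082, with 0.025 and 0.13. Restricted to the 15 Hox probes above background on all 4 arrays it was 0.25, beside 0.13 for all such probes. Of these 15, 3 in *Hoxa*, 4 in *Hoxb* and 1 in *Hoxd* were higher on both slides, against 33.0% of all such probes. In *Hoxa* 2 were lower on both, and in *Hoxb* and *Hoxd* 0, against 17.7%. With the same 21 probes and 1 array left out, the Hox median ranged from 0.087 to 0.51, with 0.087 without Meis1-KO on slide 2, 0.13 without Meis1-WT on slide 2 and 0.28 without Meis1-WT on slide 1.

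**Figure D2:**
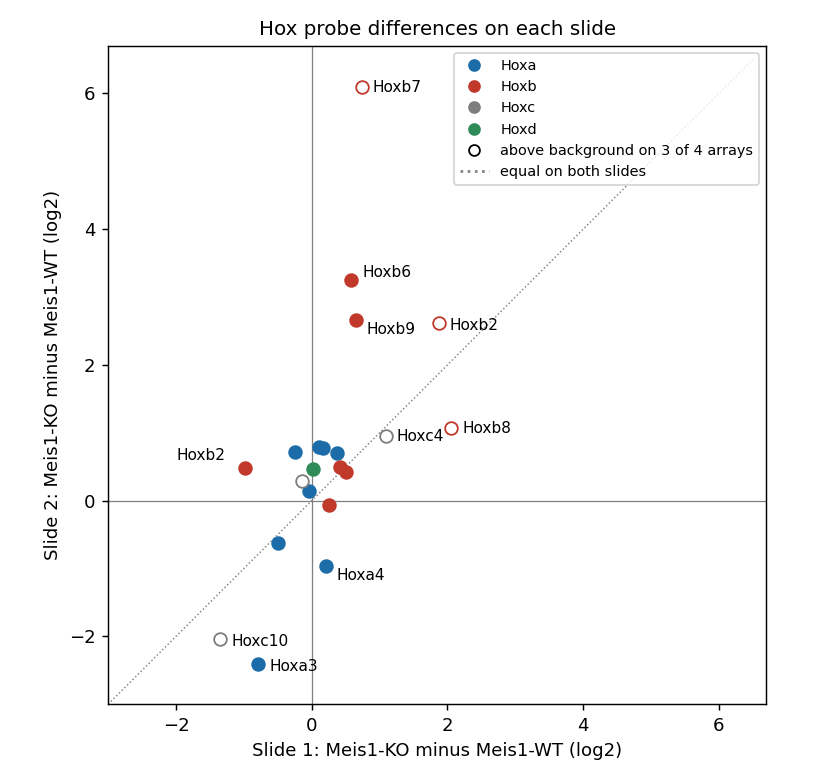
Meis1-KO minus Meis1-WT (log2) of the 21 tested Hox probes on slide 1 (horizontal) and slide 2 (vertical), colored by cluster, with open points for the 6 probes above background on 3 of 4 arrays. *Hoxb7*, *Hoxb6* and *Hoxb9* sit high on slide 2 (6.09, against a dim Meis1-WT value, then 3.25 and 2.66) and near 0.65 on slide 1, and the lowest points are *Hoxa3* and *Hoxc10*.

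Most tested *Hoxb* probes had higher values in Meis1-KO. Of 9 tested *Hoxb* probes, 7 were higher in Meis1-KO on both slides, 0 were lower on both and 2 were mixed, against 30.3% of all tested probes higher and 21.0% lower, with a median difference of 1.56 (median 0.58 on slide 1 and 1.07 on slide 2). But 3 of them (*Hoxb2* A_51_P257789, *Hoxb7* and *Hoxb8*) were dim in Meis1-WT on slide 2 and were tested only because both Meis1-KO arrays were above background. Over the 6 *Hoxb* probes above background on all 4 arrays, 4 were higher on both slides, 0 lower and 2 mixed, against 33.0% higher and 17.7% lower of all probes above background on all 4, and the median was 0.46. Of 8 tested *Hoxa* probes, all above background on the 4 arrays, 3 were higher on both slides, 2 lower and 3 mixed, beside the same shares, with a median of 0.14. Without Meis1-WT on slide 2 the median of all 9 *Hoxb* probes was 0.40 and that of the 8 *Hoxa* probes -0.022. Among the 6 *Hoxb* probes above background on all 4 arrays, leaving out that array lowered the differences of *Hoxb3*, *Hoxb5*, *Hoxb6* A_51_P232207 and *Hoxb9*. It raised those of *Hoxb2* A_52_P15300 and *Hoxb6* A_52_P648750. No test of the difference between clusters was made, since genes of a cluster are not replicates.

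*Hoxb7*, an antennapedia-type factor of the middle of the cluster, read -0.44 and 0.14 in Meis1-KO and -1.18 and -5.95 in Meis1-WT. Both Meis1-KO arrays were above both Meis1-WT arrays, and the Meis1-WT value on slide 2 was not well above background. On slide 1 the difference was 0.74, or 1.67-fold. On slide 2 it was 14.5-fold with the Meis1-WT value raised to the lowest signal above background on that array (-3.71). Such folds follow a convention and are not lower bounds, since a dim probe can lie above that signal, as *Hoxb8* did there (-3.55). The fitted difference of 3.42 ± 1.43 (SE, n = 2 per genotype) therefore came mostly from 1 array. It was 1.03 without that array. Without Meis1-WT on slide 1 it was 5.80, but taken against the dim value alone.

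*Hoxb2* A_51_P257789, the minus-strand probe whose sequence is given above, read -1.71 and -2.50 in Meis1-KO and -3.58 and -5.12 in Meis1-WT. The groups did not overlap, and Meis1-WT on slide 2 was dim. The difference was 1.87 on slide 1 (3.66-fold), and on slide 2 it was 2.32-fold with the dim value raised in the same way. The fitted difference at the measured values was 2.25 ± 0.64 (SE), with an unadjusted p of 0.0124 by limma. It was 1.48 without Meis1-WT on slide 2. Without Meis1-WT on slide 1 it was 3.01, but taken against the dim value alone. The other *Hoxb2* probe, A_52_P15300, matches the *Hoxb2* mRNA, a gene of the anterior group known from hindbrain patterning. It read -3.65 and -1.96 in Meis1-KO and -2.67 and -2.44 in Meis1-WT, so the groups overlapped and the slides gave opposite directions (-0.98 and 0.49). The 2 probes listed under the same gene name thus did not move alike.

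*Hoxb6*, known for its expression in blood progenitors, also had 2 measured probes. A_52_P648750 read 3.22 and 3.24 in Meis1-KO and 2.96 and 3.30 in Meis1-WT, a difference of 0.098 ± 0.43 (SE). A_51_P232207 read -1.92 and -0.35 in Meis1-KO and -2.51 and -3.59 in Meis1-WT. For the first probe the groups overlapped, and for the second they did not, with differences of 0.58 on slide 1 and 3.25 on slide 2 (1.50-fold and 9.49-fold). The fitted difference of the second was 1.92 ± 0.69 (SE), with an unadjusted p of 0.0306 by limma. It was 1.13 without Meis1-KO on slide 2, 1.37 without Meis1-WT on slide 2 and 2.70 without Meis1-KO on slide 1.

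*Hoxb9*, at the posterior end of the group of neighbouring *Hoxb* genes, read 0.56 and 0.067 in Meis1-KO and -0.091 and -2.60 in Meis1-WT at probe A_52_P973575. The groups did not overlap, with a difference of 0.65 on slide 1 and 2.66 on slide 2 (1.65 ± 0.84, SE), but 0.40 without Meis1-WT on slide 2 and 2.91 without Meis1-WT on slide 1. Its second probe, A_52_P98462, was above background on slide 1 only, at -0.79 in Meis1-KO and -1.57 in Meis1-WT. On both slide 2 arrays that probe was dim, so it gave no value for the slide on which the first probe differed most.

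*Hoxb8*, whose forced expression keeps myeloid progenitors from maturing, read -0.37 and -2.48 in Meis1-KO and -2.43 and -3.55 in Meis1-WT. The Meis1-KO array was higher on each slide, by 2.06 (4.16-fold) on slide 1 and 2.10-fold on slide 2, where the Meis1-WT value was dim. But the groups overlapped because Meis1-KO on slide 2 lay below Meis1-WT on slide 1. The fitted difference was 1.56 ± 0.80 (SE), but 0.51 without Meis1-KO on slide 1 and 2.62 without Meis1-KO on slide 2. Its second probe, A_51_P402686, was above background on the slide 1 arrays only, at -3.35 in Meis1-KO and -3.69 in Meis1-WT.

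*Hoxb3* and *Hoxb5* had differences of similar size on both slides. *Hoxb3*, an anterior group gene, read -0.37 and -0.95 in Meis1-KO and -0.79 and -1.45 in Meis1-WT, a difference of 0.42 on slide 1 and 0.50 on slide 2. *Hoxb5*, known as a marker of long-term stem cells, read 0.11 and -0.75 in Meis1-KO and -0.40 and -1.17 in Meis1-WT, a difference of 0.51 and 0.42. For both genes the groups overlapped, and the standard errors (0.49 and 0.53) were as large as the fitted differences (0.46 and 0.46). With 1 array left out, the difference ranged from 0.13 (without Meis1-WT on slide 2) to 0.79 for *Hoxb3* and from 0.037 (without Meis1-KO on slide 1) to 0.89 for *Hoxb5*.

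**Figure D3:**
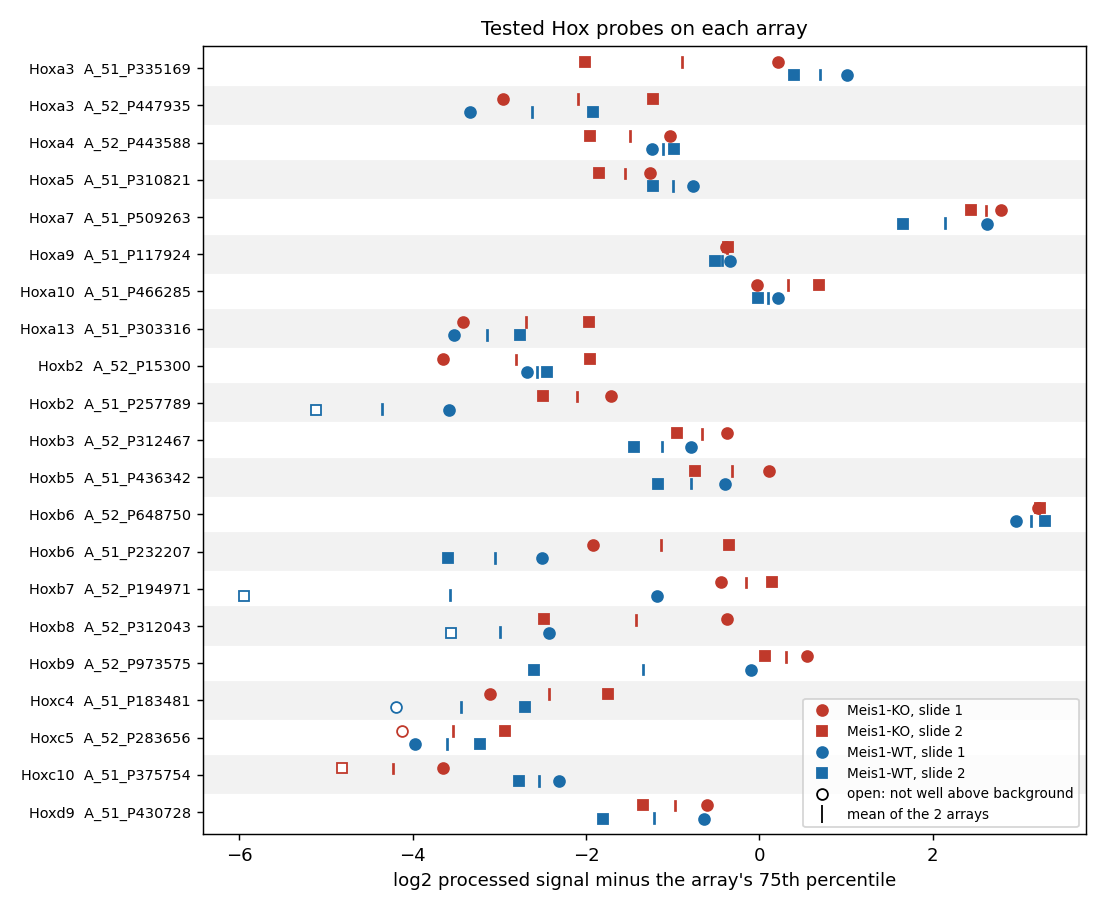
The 21 tested Hox probes on each array, as log2 processed signal minus the array's 75th percentile, with Meis1-KO in red above Meis1-WT in blue, circles for slide 1, squares for slide 2, open symbols for values not well above background and bars for the mean of 2 arrays. The Meis1-WT slide 2 square lies far to the left of the others for *Hoxb7* (-5.95), whereas *Hoxa9* and *Hoxb6* A_52_P648750 lie close together on all 4 arrays.

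In the *Hoxa* cluster, *Hoxa9*, the leukemia-associated partner of *Meis1*, gave nearly equal signals. It read -0.38 and -0.36 in Meis1-KO and -0.34 and -0.51 in Meis1-WT, with a difference of 0.053 ± 0.42 (SE). The 4 values overlapped and spanned less than those of any other tested *Hoxa* probe. *Hoxa10*, which also acts in progenitor expansion, read -0.024 and 0.69 in Meis1-KO and 0.22 and -0.016 in Meis1-WT, with opposite directions on the slides (-0.24 and 0.71). *Hoxa7*, a further Hox gene known from Meis1-driven leukemia, read 2.79 and 2.44 in Meis1-KO and 2.62 and 1.66 in Meis1-WT, a difference of 0.16 on slide 1 and 0.78 on slide 2.
For *Hoxa10* and *Hoxa7* alike the groups overlapped and the fitted differences (0.23 and 0.47) were within their standard errors (0.47 and 0.51).

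*Hoxa3* had 2 measured probes, which ran opposite ways. At A_51_P335169 it read 0.22 and -2.01 in Meis1-KO and 1.01 and 0.40 in Meis1-WT, and at A_52_P447935 -2.95 and -1.22 in Meis1-KO and -3.33 and -1.92 in Meis1-WT. The groups did not overlap at the first probe, which was lower in Meis1-KO by a fold of 1.73 on slide 1 and 5.31 on slide 2 (difference -1.60 ± 0.78, SE), and they overlapped at the second, which was higher by 0.38 and 0.70. The difference at the first probe was -0.48 without Meis1-KO on slide 2, the array with the lowest share of spots above background, and -2.71 without Meis1-KO on slide 1.

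*Hoxa5*, a regulator of the choice between myeloid and erythroid fates, read -1.26 and -1.85 in Meis1-KO and -0.76 and -1.23 in Meis1-WT. Both Meis1-KO values lay below both Meis1-WT values, by 0.50 on slide 1 and 0.62 on slide 2, but the difference of -0.56 ± 0.47 (SE) had an adjusted p = 0.983 by limma. It was -0.26 without Meis1-KO on slide 2 and -0.85 without Meis1-KO on slide 1. *Hoxa4* read -1.03 and -1.95 in Meis1-KO and -1.24 and -0.98 in Meis1-WT, with overlap and opposite directions. *Hoxa13*, known from limb and hindgut development, read -3.42 and -1.97 in Meis1-KO and -3.52 and -2.76 in Meis1-WT at its measured probe, again with overlap, and both slide 2 values were above both slide 1 values.

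Of the c and d clusters, 4 probes were tested. *Hoxc10*, a posterior gene known from the hind limb and spinal cord, read -3.65 and -4.81 in Meis1-KO and -2.31 and -2.77 in Meis1-WT, with the Meis1-KO value on slide 2 dim. Both Meis1-KO values were below both Meis1-WT values, by 1.34 on slide 1 (2.54-fold) and by 1.39-fold on slide 2 with the dim value raised. The fitted difference was -1.69 ± 0.55 (SE) at the measured values, with an unadjusted p of 0.0206 by limma, and -0.91 with the dim value raised. At the measured values the difference was -1.11 without Meis1-KO on slide 2. Without Meis1-KO on slide 1 it was -2.27, but resting on the dim value alone. This direction was lost with the normexp background correction, where the difference was 0.066. Its second probe was above background on no array.

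*Hoxc4* and *Hoxc5* were near the limit of detection. *Hoxc4* read -3.10 and -1.74 in Meis1-KO and -4.19 and -2.70 in Meis1-WT, higher in Meis1-KO by 1.09 and 0.96 on the slides, with overlap. *Hoxc5* read -4.12 and -2.94 in Meis1-KO and -3.98 and -3.22 in Meis1-WT, also with overlap. For both genes the slide 2 value was the higher one in each genotype. *Hoxd9*, the single *Hoxd* gene above background on all arrays, read -0.61 and -1.34 in Meis1-KO and -0.63 and -1.80 in Meis1-WT, a difference of 0.024 on slide 1 and 0.47 on slide 2.

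Neighbours along the clusters did not share 1 direction. The *Hoxb* probes span 171 kb of chromosome 11 (mm9). In *Hoxb*, the tested probes from *Hoxb5* to *Hoxb9* were higher in Meis1-KO on both slides except *Hoxb6* A_52_P648750 (0.26 and -0.060), which lies between the other *Hoxb6* probe and *Hoxb7*. In *Hoxa*, the tested probe of *Hoxa5* and 1 of the 2 of *Hoxa3* were lower in Meis1-KO on both slides, and the tested probes from *Hoxa7* to *Hoxa13* were higher on slide 2.

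**Figure D4:**
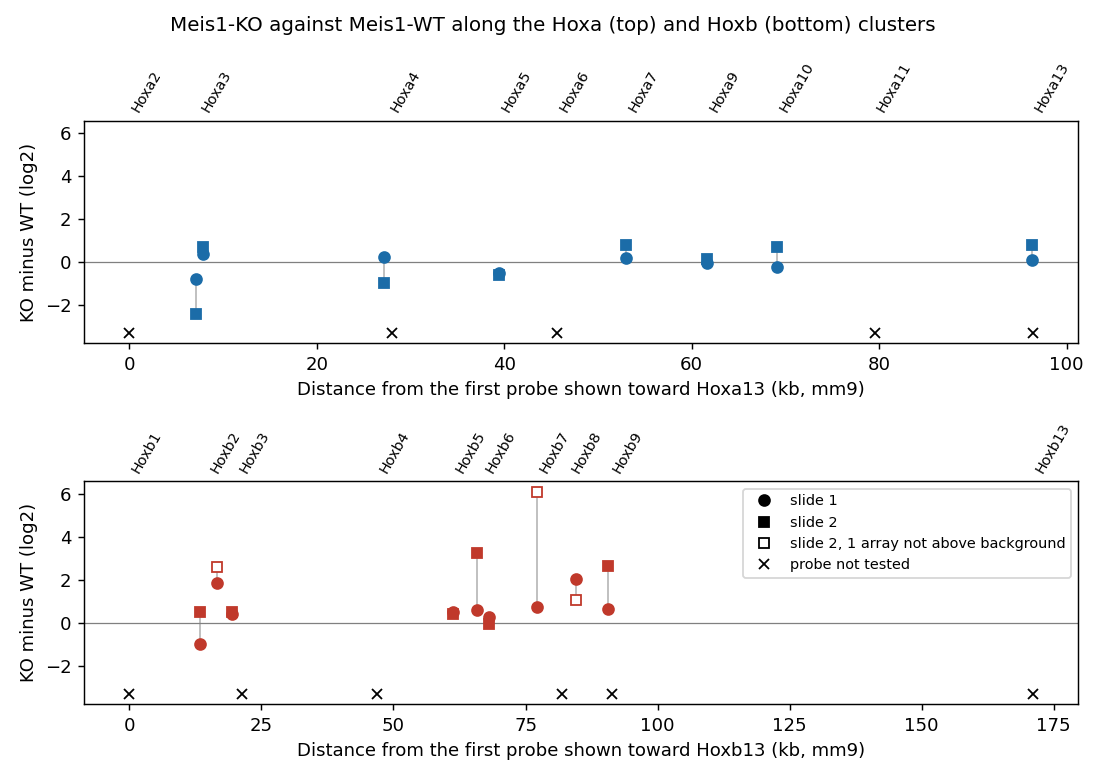
Meis1-KO minus Meis1-WT (log2) along the *Hoxa* and *Hoxb* clusters, by distance in kb from the first probe shown toward the highest-numbered gene, with circles for slide 1, squares for slide 2, lines joining the slides of a probe and crosses for probes not tested. *Hoxa* values stay between -2.41 and 0.79, and the *Hoxb* values on slide 2 reach 6.09 at *Hoxb7*, an open symbol because the Meis1-WT value there was dim.

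Of the partners of Hox proteins, 6 of 9 TALE genes were above background on all 4 arrays (among them *Meis1*, *Pbx2*, *Pbx3*, *Pbx4* and *Pknox1*), and by the brightest probe of each gene 0 of the 6 tested met the criteria, against 0.736% of all tested probes, or 1.99% with the block, where there were also 0. Over all 11 tested TALE probes there was 1, with the block only, the second *Meis1* probe (A_52_P26195). At its brightest probe *Meis1* read 0.25 and 0.22 in Meis1-KO and 1.02 and 1.45 in Meis1-WT, lower by 0.77 and 1.23 on the slides (-1.0 ± 0.44, SE, adjusted p = 0.983 by limma). The second read -2.46 and -3.54 in Meis1-KO, dim on slide 2, and -1.55 and -1.06 in Meis1-WT (-1.70 ± 0.54, SE, adjusted p = 0.983 by limma and 0.498 with the block). The probes were not placed relative to the deleted exon, so they are no check of the deletion. *Pbx4*, a further Pbx partner, differed by 0.91 ± 0.50 (SE) at its brightest probe and by -0.47 ± 0.42 at the other. No probe of *Meis2* or *Pknox2* (3 each) was above background on any array, and the 1 probe of *Meis3* was above on Meis1-WT slide 1 only.

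In the lists of genes that set the chromatin state of Hox clusters, 0 of the 11 and 13 tested genes met the criteria at their brightest probe, against 0.736% of all tested probes, or 1.99% with the block, where there were also 0. Over all their tested probes the block gave 1, a Cbx8 probe (A_52_P229997) dim on both Meis1-KO arrays and lower there. Of the MLL and elongation complex, 11 of 11 genes were above background on all 4 arrays, 3 were higher and 4 lower in Meis1-KO on both slides, against 30.3% and 21.0% of all tested probes, and the median difference was -0.31, beside 0.082 for all tested probes. The value furthest below 0 among the brightest probes of that list was that of *Mllt3*, a stem cell regulator and MLL fusion partner, which read 3.28 and 2.28 in Meis1-KO and 4.36 and 4.00 in Meis1-WT (-1.40 ± 0.51, SE, adjusted p = 0.983 by limma). Its other 4 tested probes ranged from -1.48 to -0.017, and of these A_52_P1066847 (-1.58 and 0.57) and A_52_P530665 (0.15 and -0.18) differed in direction between slides. Of 13 Polycomb genes, 13 were above background on all 4 arrays, 3 were higher and 5 lower on both slides, and the median was -0.10, from -0.99 for *Cbx2* to 0.53 for *Eed*. The caudal genes *Cdx1*, *Cdx2* and *Cdx4*, which switch on Hox genes in the embryo, were above background on no array.

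Promoters of the Hox genes were read for the letters that Meis and Pbx-Hox pairs are known to bind, because *Meis1* was the deleted factor. RefSeq promoter windows, 250 bases before the start on GRCm38.p6, were at hand for 22 Hox genes (24 windows). The Meis letters TGACAG, on either strand, were in 2 of the 24 windows (*Hoxa2* and *Hoxa3*), against 15.9% of 32851 promoters, and the Pbx-Hox letters TGATNNAT, also on either strand, in 4 (*Hoxa2*, *Hoxb1*, *Hoxb8* and *Hoxd11*), against 7.68%. The table gives 1 or more starts per gene, and that of *Hoxa3* lies between the windows of *Hoxa6* and *Hoxa7*, while that of *Hoxb8* lies inside the *Hoxb8* gene record. The windows of *Hoxb8* (chr11:96281655-96281904, plus strand), with the Pbx-Hox letters 11 bases before the start, and of *Hoxa9* (chr6:52227371-52227620, minus strand), with neither, are printed with the matches in capitals.
*Hoxb8* promoter: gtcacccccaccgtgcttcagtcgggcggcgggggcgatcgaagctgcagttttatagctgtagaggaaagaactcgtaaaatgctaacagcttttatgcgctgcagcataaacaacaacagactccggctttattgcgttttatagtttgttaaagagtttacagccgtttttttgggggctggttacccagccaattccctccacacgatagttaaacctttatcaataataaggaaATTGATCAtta
*Hoxa9* promoter: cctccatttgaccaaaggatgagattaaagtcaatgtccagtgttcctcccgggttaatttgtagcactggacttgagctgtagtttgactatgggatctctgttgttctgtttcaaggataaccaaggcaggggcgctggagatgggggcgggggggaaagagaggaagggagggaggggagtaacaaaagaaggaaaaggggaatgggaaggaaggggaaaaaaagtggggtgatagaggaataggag
Neither set of letters contains the other, and a match describes these letters only.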

How the data were processed

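LSK RNA (10 ng per pool) was amplified, Cy3-labeled and put on 1-color arrays. The authors deposited, per array, spot intensities from Feature Extraction (9.5.3.1 in the file headers, 9.1 per the labels), with background and within-array trends already removed but no scaling between arrays. Symbols and mm9 positions are the files'. Of the 50 probe accessions, 46 matched a RefSeq table (GRCm38.p6, names only), all with the same symbol. Exon annotation was not used here. Results for a few genes are not reported here.

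Control and outlier spots were left out (2 Hox outlier spots, both on Meis1-KO slide 2), spots of a probe averaged on the log2 scale and each array's 75th percentile subtracted. The 22007 tested probes were fitted with limma 3.58.1 (R 4.3.3), genotype as the only term. The criteria (p under 0.01, over 2-fold) are the study's. On simulated arrays with 200 of 22007 probes changed by 3 (log2), the fit called 87.5% of them and the methods' t-test 30.5%. The simulated noise followed the fit's own estimate of spread, independent between arrays and without a slide effect. Among the tested Hox probes only *Hoxb7* differed by more than 3, so these shares do not give the power at the size of the Hox differences. The slide equals the replicate number, recorded in the files, and same-slide deviations correlated at 0.266 across probes. With 2 arrays per genotype, the number of arrays and signal over background limit precision, and an exact permutation test cannot go below p = 0.333.

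A gene's main probe was its brightest. Per-array values were given for probes meeting the criteria with or without the block, for the main probe of genes above background on all 4 arrays, and, chosen after their values were seen, for the remaining tested probes. The Hox members, the 4 companion lists (TALE, MLL and elongation, Polycomb, caudal) and the marker lists were chosen with earlier results of these data known. Alternatives were median, quantile and normexp (offset 50) processing, the authors' table, filters, outlier spots kept, the slide block, an intensity trend, the methods' t-test and each array left out. Raising dim values, with and without the block, and keeping the tested probes fixed were added after seeing the data.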

Additional observations from a re-analysis of the deposited data

How the results depend on the processing

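The count of Hox probes meeting the criteria, 0 in each direction, rose to 1 higher with median scaling (*Hoxb2* A_51_P257789, against 0.191% of all probes), to 2 higher with no filter on dim probes (the same *Hoxb2* probe and *Hoxb7*, against 0.243%), to 2 higher and 1 lower with the replicate block, and to 5 higher and 1 lower with the block and raised dim values (0.772% and 1.55% of all probes). The replicate block, with the slide as the pair, is given beside the results it changed and changed no other call. Quantile normalization, normexp, the authors' table, outlier spots kept, the 4-array filter, the intensity trend, the methods' t-test and raised dim values without the block left the counts at 0. Leaving out 1 array gave 0 to 2 lower and 0 to 3 higher. Without Meis1-KO replicate 1, *Hoxa3* and *Hoxc10* were lower and *Hoxb6* A_51_P232207 higher, against 6.86% of all probes lower and 3.44% higher. Without Meis1-KO replicate 2, *Hoxb8* was higher (all probes 0.708%), without Meis1-WT replicate 1, *Hoxb2* A_51_P257789, *Hoxb7* and *Hoxb9* were higher (0.213%), and without Meis1-WT replicate 2, none (0.495% lower, 0.172% higher). An arm of 1 array is assumed there to vary like the other arrays. The median difference of 0.45 ranged from -0.012 to 0.51 when an array was left out (0.21 without Meis1-WT replicate 1), but the probes tested then change: -0.012 is over 27 probes without Meis1-WT replicate 2, 6 of them added and 8 passing only through the remaining Meis1-WT array. With the same 21 probes, an alternative added after seeing the data, it ranged from 0.087 (without Meis1-KO replicate 2) to 0.51, with 0.13 without Meis1-WT replicate 2. Over all probes tested, it ranged from 0.25 to 0.53 under the other settings. The count of 13 genes above background on all arrays was 18 with the flag of significance over background and 13 to 15 otherwise.

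Of 284 values of single probes under the alternatives, 251 kept their direction and side of the criteria, 19 newly met them and 14 changed direction. The direction changed with normexp for *Hoxa4* (0.0058), *Hoxb2* A_52_P15300 (0.17), *Hoxb6* A_52_P648750 (-0.063) and *Hoxc10* (0.066), and with quantile normalization for *Hoxb6* A_52_P648750 (-0.066). Normexp also made the other large differences smaller. They were 0.66 for *Hoxb2* A_51_P257789, 1.20 for *Hoxb7*, 0.88 for *Hoxb6* A_51_P232207, 0.88 for *Hoxb9*, 0.85 for *Hoxb8* and -0.73 for *Hoxa3* A_51_P335169. With 1 array left out in turn, the difference ranged from -0.84 to 0.082 for *Hoxa4* (highest without Meis1-KO replicate 2), from -0.12 to 0.59 for *Hoxa10* and -0.28 to 1.17 for *Hoxa13* (both lowest without Meis1-KO replicate 2), from -1.09 to 0.60 for *Hoxb2* A_52_P15300 (0.60 without Meis1-KO replicate 1), from -0.072 to 0.27 for *Hoxb6* A_52_P648750 (-0.072 without Meis1-WT replicate 1), from -0.012 to 0.95 for *Hoxa7*, -0.032 to 0.14 for *Hoxa9* and -0.34 to 0.83 for *Hoxd9* (lowest without Meis1-WT replicate 2, and -0.12 for *Hoxd9* without Meis1-KO replicate 1). The cause was not tested. Signal over background limits *Hoxb7*, *Hoxb8*, *Hoxc4*, *Hoxc5*, *Hoxc10* and *Hoxb2* A_51_P257789, each dim on 1 array.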
